A study of Mus musculus with 9 samples.

Results

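Myof, Ehd1, Tm9sf3, Atl3, Tmem109, Mpeg1, Ccdc88b and Drap1 are 8 genes of mouse chromosome 19 whose transcripts were more abundant in BM lines than in YS or FL lines. They were picked for lying on chromosome 19 from the genes that the study displayed as differing most among its 9 lines. They make up 8 of the 24411 genes in the deposited expression table and 8 of the 426 chromosome 19 genes that passed the filter on low values. The choice used these same libraries, so the height of the 8 genes in BM lines is described and not tested. The lines are M-CSF-dependent macrophages of C57BL/6 mice that kept dividing in culture: 3 YS lines from yolk sac at E9.5, 3 FL lines from fetal liver at E14.5 and 3 BM lines from adult bone marrow. All 9 were grown in RPMI1640 medium with fetal calf serum and 100 ng/mL M-CSF. The labels name no engineered allele and no other treatment. Each line is the bulk culture of a separate dish or well, grown out from colonies of cells pooled from several mice. One poly(A)-selected RNA library was read per line.

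The genes act in different parts of the cell. Myof encodes myoferlin, a C2-domain protein of membrane fusion and repair. Ehd1 encodes an ATPase that remodels membranes during endocytic recycling, and Tm9sf3 a nonaspanin of Golgi and endosomal membranes. Atl3 encodes atlastin 3, a GTPase that fuses tubules of the endoplasmic reticulum, and Tmem109 a channel-like protein of the endoplasmic reticulum and nuclear membranes. Mpeg1 encodes perforin-2, a pore-forming protein with which macrophages attack engulfed bacteria, and Ccdc88b a coiled-coil protein of immune cells. Drap1 encodes a subunit of NC2, which binds TBP on promoters and represses transcription. What the 8 genes share is the chromosome, which was part of how they were picked and is not a finding. The RNA of a gene often follows the number of its copies, and a cell with 3 copies of a chromosome in place of 2 would carry 1.5 times the DNA of each of its genes. That fold is used below as a yardstick. Copy number was not measured in the data used here, and its part in the values was not tested.

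The promoters of the genes had little in common in their letters. RefSeq sequences of GRCm38.p6, covering 250 bases before and 50 bases after the annotated start, were found for 7 of the 8 genes, all except Ehd1. Their GC content ran from 39.0% in Mpeg1 to 78.0% in Tm9sf3, and their number of CG dinucleotides from 2 in Mpeg1 to 43 in Tm9sf3, against medians of 52.67% and 7 over 27025 mouse promoters of that length. The 4 promoters printed below belong to the genes at the ends of the range of differences: Mpeg1 (chr19:12460520-12460819, plus strand) and Myof (chr19:38043528-38043827, minus strand) differed most between BM lines and the others, and Tm9sf3 (chr19:41263955-41264254, minus strand) and Ccdc88b (chr19:6858162-6858461, minus strand) were the nearest to 1.5-fold against YS lines. Capitals mark matches on either strand to GAGGAA (the centre of a PU.1-type ETS site), TGACTCA (an AP-1 site), GGGCGG (a GC box) and CCAAT.
Mpeg1: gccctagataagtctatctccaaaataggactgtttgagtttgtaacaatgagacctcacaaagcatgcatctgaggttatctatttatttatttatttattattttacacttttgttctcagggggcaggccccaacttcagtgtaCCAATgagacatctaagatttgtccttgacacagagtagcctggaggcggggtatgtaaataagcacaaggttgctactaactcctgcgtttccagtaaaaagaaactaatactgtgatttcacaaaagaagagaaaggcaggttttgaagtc
Myof: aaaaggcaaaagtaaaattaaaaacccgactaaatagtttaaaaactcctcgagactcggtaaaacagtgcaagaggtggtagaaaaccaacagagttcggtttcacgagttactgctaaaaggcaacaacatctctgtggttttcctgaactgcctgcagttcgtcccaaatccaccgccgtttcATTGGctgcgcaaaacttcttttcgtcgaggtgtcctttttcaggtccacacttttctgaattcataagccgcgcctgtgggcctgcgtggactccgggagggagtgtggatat
Tm9sf3: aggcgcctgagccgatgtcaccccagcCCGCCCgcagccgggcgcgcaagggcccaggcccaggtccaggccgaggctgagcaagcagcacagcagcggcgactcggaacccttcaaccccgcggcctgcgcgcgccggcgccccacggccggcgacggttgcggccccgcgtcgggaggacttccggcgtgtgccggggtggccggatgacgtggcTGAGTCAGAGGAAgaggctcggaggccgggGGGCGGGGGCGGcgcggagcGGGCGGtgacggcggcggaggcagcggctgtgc
Ccdc88b: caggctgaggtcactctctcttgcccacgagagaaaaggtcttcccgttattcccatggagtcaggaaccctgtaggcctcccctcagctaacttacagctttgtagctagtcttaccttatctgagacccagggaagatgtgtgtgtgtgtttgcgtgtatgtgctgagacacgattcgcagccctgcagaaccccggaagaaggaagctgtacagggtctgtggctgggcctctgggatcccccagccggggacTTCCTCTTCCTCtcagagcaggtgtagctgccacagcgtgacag
The letters GAGGAA stood in 3 of the 7 promoters (Atl3, Ccdc88b and Tm9sf3) and in 28.3% of all promoters. GGGCGG stood in 4 of 7 (Atl3, Tm9sf3, Tmem109 and Drap1, the last with 6 matches) and in 35.9% of all. CCAAT stood in 3 of 7 (Myof, Mpeg1 and Tmem109) and in 37.9% of all. TGACTCA stood only in Tm9sf3 among the 7, directly beside GAGGAA, and in 5.17% of all. No motif of the 4 was in all 7 promoters. Within the 4 printed windows some marked matches touch, but none overlaps another.

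The lines were macrophage-like by their transcripts. All 7 macrophage markers examined (Csf1r, Adgre1, Itgam, Cd68, Mertk, Fcgr1 and Lyz2) were above 1 TPM in every line. Their levels were not equal: Fcgr1, an Fc receptor gene, fell from means of 246 (YS) and 149 (FL) to 16.4 TPM (BM, with 1.68 in BM line 3; log2 differences of -4.65 and -4.02, limma, adjusted p = 0.00761 and 0.0142), Mertk fell against FL lines (-1.99, adjusted p = 0.00586) and Lyz2 rose against YS lines (1.6, adjusted p = 0.0538). TPM, the share of all transcripts in a library, divides reads by transcript length and scales each library to the same sum, so levels of different genes can be compared, but the number of reads behind a value is not kept and the depth is unknown. Of 23 listed markers of red cells, liver, endothelium, fibroblasts, epithelium, neutrophils and lymphocytes, those under 1 TPM in all lines of a group numbered 16 (YS), 17 (FL) and 19 (BM). Their summed level was 29.4 to 60.2 TPM over YS lines, 43.8 to 98.3 over FL lines and 8.63 to 242 over BM lines, and BM line 2 stood apart through the hemoglobin gene Hba-a1 at 215 TPM against 0.3 in BM lines 1 and 3. The listed endothelial genes Kdr (a receptor gene), Pecam1 and Cdh5 did not all rank the lines alike. Over YS lines 1 to 3, Kdr read 0.29, 16.08 and 54.35 TPM, Pecam1 4.91, 8.17 and 0.29, and Cdh5 0.14, 0.87 and 1.36. The FL lines gave 17.37, 17.47 and 50.36 TPM for Kdr, but no more than 0.25 for Pecam1 and 1.38 for Cdh5. None of these genes exceeded 0.86 TPM in a BM line. Hbb-bt, the other globin gene listed, reached 12.55 TPM in BM line 2, and all 8 other lines list it at 0. The part of such cells in the differences below was not tested, and in bulk RNA fewer cells of a type and less RNA per cell cannot be told apart. Libraries of a group correlated, over log2 values, with Pearson's r of 0.912 to 0.960 over YS lines, 0.947 to 0.963 over FL lines and 0.975 to 0.985 over BM lines.

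All 8 genes were higher in every BM line than in each of the 6 other lines. For comparison, 10.9% of the 11753 tested genes, and 59.8% of the 418 other tested genes of chromosome 19, had every BM line above all YS and FL lines. The ratio of the BM mean to the YS mean ran from 1.52 for Ccdc88b to 3.89 for Myof, and the ratio of the BM mean to the FL mean from 1.88 for Tm9sf3 to 3.72 for Mpeg1. Thus all 8 were above 1.5-fold in their means against both groups, as were 7.52% of all tested genes and 40.2% of the other chromosome 19 genes. On the fitted scale of log2(TPM + 1), 7 of the 8 were above 1.5-fold against YS lines, all but Ccdc88b, and 8 against FL lines. Against YS lines 5 of the 8 were above 2-fold in their means, and against FL lines 7 of 8. The share of all tested genes was not counted on the fitted scale or for 2-fold in the means. Those counts therefore describe the 8 alone and cannot be set against a background. The comparisons with YS and with FL lines share the 3 BM lines, so they are not independent of each other.

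**Figure D1:**
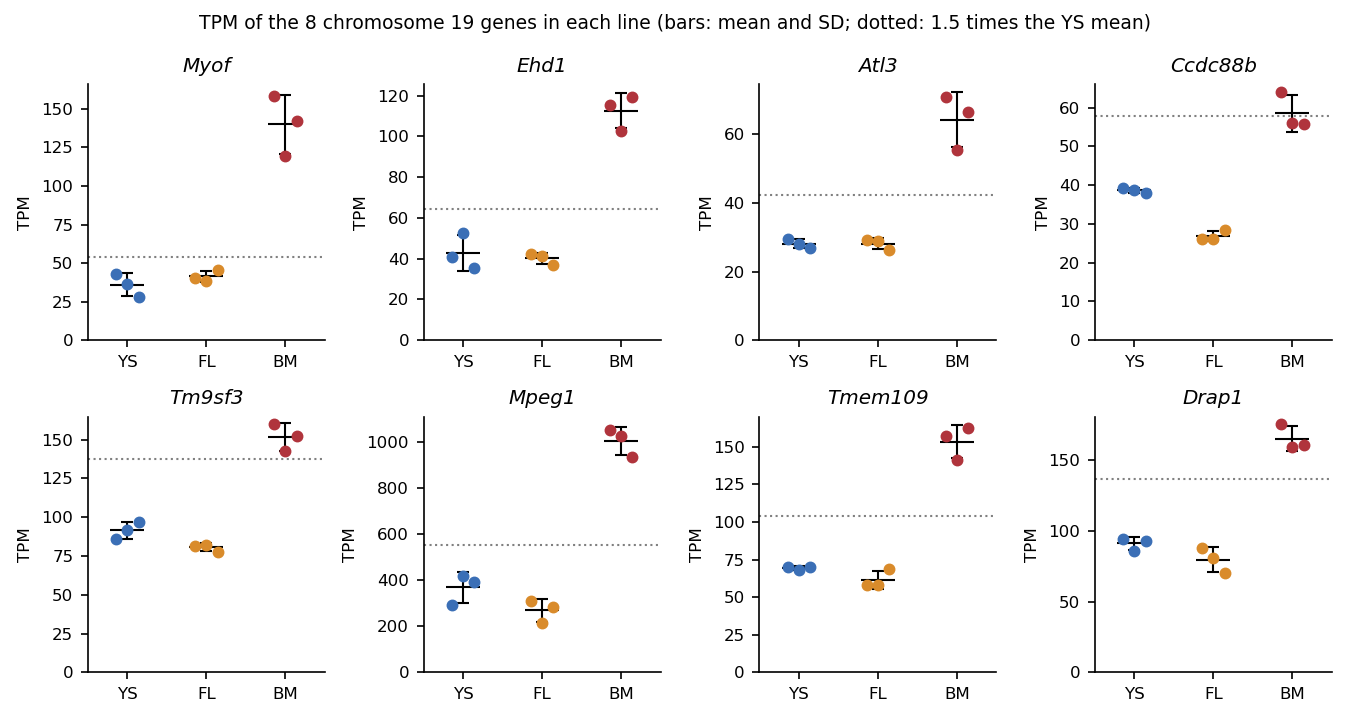
TPM of the 8 chromosome 19 genes in each line (vertical axes in TPM from 0, points for single lines, horizontal bars for the mean and error bars for the SD of 3 lines; the dotted line is 1.5 times the YS mean). In every panel the 3 BM lines sit above all YS and FL lines, and in Ccdc88b 2 of the 3 BM points lie under the dotted line.

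Among the genes of membrane traffic and repair, Myof gave 43.1, 36.8 and 28.2 TPM for YS lines 1 to 3, 40.3, 38.1 and 45.5 for FL lines 1 to 3, and 158, 120 and 142 for BM lines 1 to 3, the order in which all line values are given. The YS and FL values overlapped, and the lowest BM line was 2.77 times the highest YS line and 2.63 times the highest FL line. Its mean level was 36.0 ± 7.51, 41.3 ± 3.81 and 140 ± 19.4 TPM in YS, FL and BM lines (SD, n = 3 per group). The log2 difference of TPM + 1 was 1.94 (SE 0.17) against YS lines and 1.73 (SE 0.17) against FL lines, the largest of the 8 against YS lines.

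Ehd1 gave 40.7, 52.6 and 35.4 TPM for the YS lines, 42.2, 41.2 and 37.1 for the FL lines and 115, 103 and 119 for the BM lines. YS and FL lines overlapped here too. The mean of BM lines was 2.62 times that of YS lines and 2.80 times that of FL lines, and the lowest BM line was still 1.96 times the highest YS line. On the log2 scale the differences were 1.39 and 1.46 (SE 0.15 each). Tm9sf3 had a narrower range: 86.1, 91.7 and 97.0 TPM for the YS lines, 81.7, 82.2 and 77.6 for the FL lines and 160, 142 and 152 for the BM lines. All YS values of Tm9sf3 were above all FL values. Its BM mean was 1.65 times the YS mean and 1.88 times the FL mean, and its log2 differences were 0.72 and 0.90 (SE 0.09 each). Between the extreme lines, the lowest BM value of Tm9sf3 was 1.47 times the highest YS value, under the 1.5-fold yardstick, and 1.73 times the highest FL value.

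Of the genes of the endoplasmic reticulum, Atl3 gave 29.5, 28.1 and 26.9 TPM for the YS lines and 29.2, 28.9 and 26.4 for the FL lines. These 6 values ran from 26.4 to 29.5 TPM, with the groups intermixed. The BM lines gave 70.8, 55.4 and 66.5 TPM, so that the BM mean was 2.28 times both other means, and the log2 differences were both 1.16 (SE 0.12). Tmem109 gave 69.9, 68.2 and 70.3 TPM for the YS lines, 57.8, 58.2 and 68.5 for the FL lines and 157, 141 and 162 for the BM lines. The FL line 3 value reached into the range of YS lines, while all BM values were at least 2.01 times the highest value elsewhere. The BM mean of Tmem109 was 2.21 times the YS mean and 2.5 times the FL mean, with log2 differences of 1.13 and 1.31 (SE 0.10 each).

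Mpeg1 was the most abundant of the 8 in all 3 groups and at the 97.7th percentile of all tested genes by mean level. It gave 294, 419 and 391 TPM for the YS lines, 311, 214 and 284 for the FL lines and 1050, 1026 and 934 for the BM lines. The YS and FL values overlapped through YS line 1 and FL line 1. The BM mean was 2.73 times the YS mean and 3.72 times the FL mean, the largest ratio of the 8 against FL lines, and the log2 differences were 1.46 and 1.91 (SE 0.17 each). Ccdc88b gave 39.3, 38.7 and 37.9 TPM for the YS lines, 26.15, 26.0 and 28.5 for the FL lines and 64.0, 55.9 and 55.7 for the BM lines. Here the groups formed separate steps, FL below YS below BM, with no overlap. Its BM mean was 1.52 times the YS mean, the smallest of the 16 ratios, and 2.18 times the FL mean. On the fitted log2 scale the differences were 0.58 and 1.09 (SE 0.10 each), and the first of them is 1.499-fold, just under the yardstick. Without BM line 1 the ratio to YS lines was 1.44, and Ccdc88b was the only one of the 8 whose ratio to either group was under 1.5 when a line was left out. The lowest BM value was 1.42 times the highest YS value.

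Drap1, the nuclear member of the group, gave 94.3, 85.9 and 93.0 TPM for the YS lines, 88.1, 80.7 and 70.2 for the FL lines and 175, 159 and 161 for the BM lines. YS and FL values overlapped. The BM mean was 1.81 times the YS mean and 2.07 times the FL mean, and the log2 differences were 0.85 and 1.05 (SE 0.11 each). The lowest BM line was 1.69 times the highest YS line and 1.81 times the highest FL line.

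Set against the yardstick line by line, 6 of the 8 genes (Myof, Ehd1, Atl3, Mpeg1, Tmem109 and Drap1) exceeded 1.5-fold even between the lowest BM line and the highest YS line, and all 8 did so against the highest FL line. By the same measure Myof, Mpeg1 and Tmem109 exceeded 2-fold against YS lines, and Myof, Ehd1, Mpeg1 and Tmem109 against FL lines. Of all tested genes 5.06% exceeded 1.5-fold and 2.69% exceeded 2-fold by this measure against YS lines, and 5.46% and 2.88% against FL lines. Of the other 418 chromosome 19 genes 23% and 9.81% did so against YS lines, and 46.4% and 12% against FL lines. BM line 2 was the lowest BM line for 6 of the 8 genes and BM line 1 the highest for 6 of 8. With BM line 2, the line with Hba-a1, left out, all 8 stayed above 1.5-fold in their means. Between YS and FL lines the log2 means of 6 of the 8 genes were higher in YS lines. This was also so for 72.7% of the other chromosome 19 genes and 52.1% of all tested genes. Only Ccdc88b (0.51, SE 0.10) and Tm9sf3 (0.18, SE 0.09) had all YS lines above all FL lines. Such a separation was found in 12.6% of all tested genes and 29.2% of the other chromosome 19 genes.

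The relatives of the 8 genes lie on other chromosomes and were listed by family, not by level. Of 15 paralogs, 14 were in the table and 8 passed the filter, and none was called different between BM and YS lines or between BM and FL lines (limma, adjusted p under 0.1 and a difference over 2-fold). Over all tested genes 5.22% were called higher and 7.57% lower in BM than in YS lines, and 4.3% higher and 6.01% lower in BM than in FL lines. The median log2 difference of the 8 tested paralogs was -0.12 against YS lines and -0.15 against FL lines, close to the medians over all tested genes of -0.11 and -0.09. In limma's test, Ehd4, a paralog of Ehd1, had means of 201.5 ± 19.9 (YS), 198 ± 13.9 (FL) and 162 ± 11.8 TPM (BM; SD, n = 3 per group), a log2 difference of -0.31 against YS lines (adjusted p = 0.0635) and of -0.29 against FL lines (adjusted p = 0.098). Tm9sf2, a paralog of Tm9sf3, was lower in BM lines by 0.49 on the log2 scale against YS lines (limma, adjusted p = 0.00712) and by 0.43 against FL lines (adjusted p = 0.0119), which passed the false discovery rate but not the 2-fold threshold.

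For Tm9sf1 and Tm9sf4 the differences were between -0.09 and 0.22 and none passed (adjusted p of at least 0.191). Atl2, the atlastin that was most abundant beside Atl3, differed by -0.17 against YS lines (adjusted p = 0.48) and by 0.25 against FL lines (adjusted p = 0.351). Ccdc88a, which encodes girdin, differed by 0.12 (adjusted p = 0.594) and 0.09 (adjusted p = 0.714). Of the ferlins, Fer1l5 was the only relative of Myof to pass the filter, at 0.91, 0.94 and 0.69 TPM in the means of YS, FL and BM lines. Dysf, the gene of dysferlin, was at 1.03, 2.35 and 0.47 TPM in BM lines and at most 0.05 TPM in the others. Of 7 listed genes of pore-forming proteins and terminal complement components, only C8g passed the filter, and it was not called. Prf1, C6, C7, C8a, C8b and C9 were at most 0.08 TPM in any line.

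**Figure D2:**
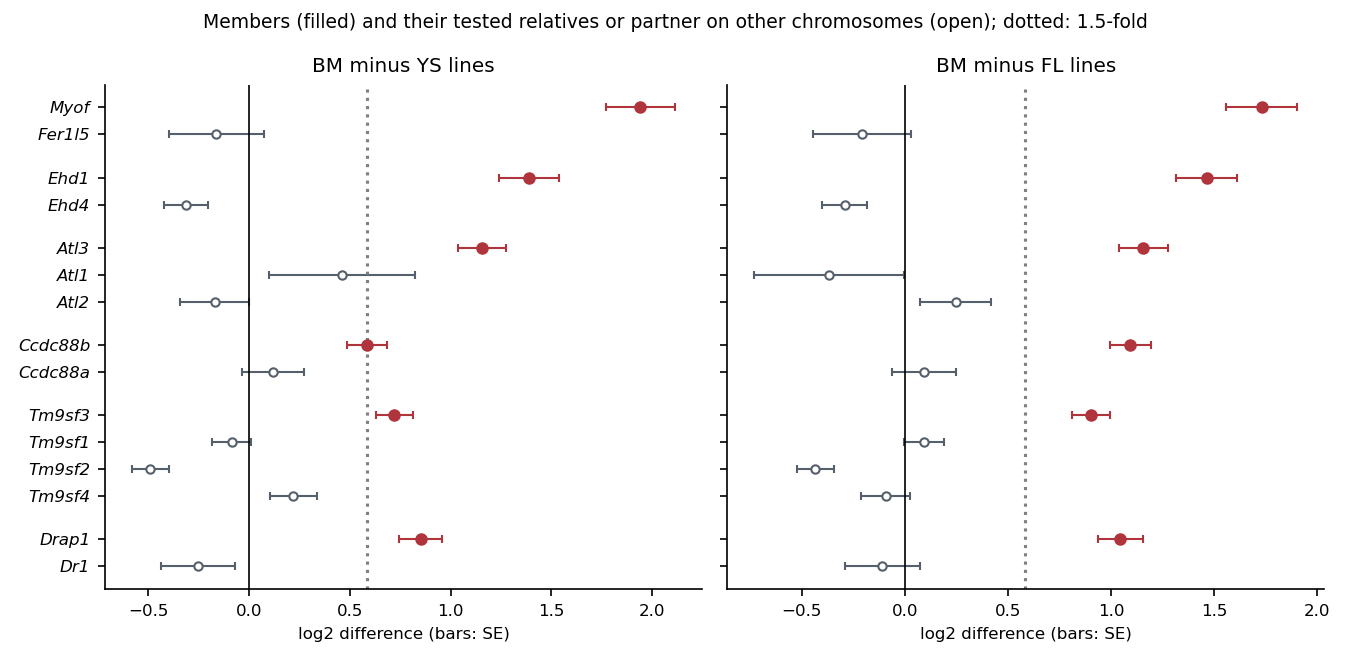
Log2 differences of TPM + 1 (horizontal axes) for 6 of the genes, filled, and their tested paralogs or partner, open, for BM minus YS lines (left) and BM minus FL lines (right), with error bars of 1 SE. The filled points lie right of the dotted 1.5-fold line, except Ccdc88b against YS lines, which lies on it, and the open points lie between -0.49 and 0.46.

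Within each family the share of transcripts held by the chromosome 19 gene was therefore larger in BM lines. Ehd1 made up 15.2% to 19.03% of summed EHD-family TPM over YS lines, 16.5% to 16.9% over FL lines and 37.0% to 43.2% over BM lines. Atl3 made up 38.4% to 45.8%, 47.9% to 49.1% and 63.2% to 66.4% of the atlastins in YS, FL and BM lines. Tm9sf3 held 21.35% to 23.1%, 19.2% to 21.0% and 33.2% to 36.7% of its family. The summed TPM of the TM9SF family differed little, at 417 ± 14.3, 404 ± 13.3 and 430.5 ± 5.76 TPM in YS, FL and BM lines (SD, n = 3 per group). Ccdc88b held 60.0% to 64.6%, 49.7% to 57.5% and 69.2% to 71.3% of its family. Myof made up over 97% of the ferlins in every line, and its share overlapped between groups (97.09% to 98.19%, 97.66% to 97.84% and 97.48% to 99.11%). The Drap1 protein works as a pair with the product of Dr1, on chromosome 5, which was at 74.9 ± 22.7, 65.8 ± 3.31 and 61.0 ± 3.55 TPM in YS, FL and BM lines. The ratio of Drap1 to Dr1 TPM was 0.921 to 1.46 over YS lines, 1.04 to 1.302 over FL lines and 2.65 to 2.77 over BM lines. Dr1 itself was not called, with log2 differences of -0.25 (limma, adjusted p = 0.324) and -0.11 (adjusted p = 0.726).

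Genes that work with the 8 showed a mixed picture. Of 21 genes of EHD1-dependent recycling and membrane repair, all tested, 3 were called higher and 0 lower in BM than in YS lines, and 1 higher and 2 lower in BM than in FL lines, with medians of -0.04 and -0.20. At any fold and adjusted p under 0.1, 6 were higher and 5 lower than in YS lines, and 2 higher and 7 lower than in FL lines. Of all tested genes, 14.4% were higher and 23.5% lower than in YS lines, and 10.6% higher and 17% lower than in FL lines. Anxa1, encoding annexin A1 and itself on chromosome 19, rose in both comparisons, from 378 ± 104 TPM (YS) and 423 ± 72.8 (FL) to 1278 ± 144 TPM (BM; SD, n = 3 per group; log2 differences 1.79 and 1.6, limma, adjusted p = 0.00195 and 0.00226). S100a10, the annexin A2 partner on chromosome 3, rose against YS lines (1.57, adjusted p = 0.00645). Against FL lines its difference was 0.94 (adjusted p = 0.0487). Capn1, a chromosome 19 gene for a calpain of membrane repair, rose against YS lines (1.32, adjusted p = 0.0507). That call was lost without YS line 3, BM line 1 or BM line 3 (adjusted p of 0.0872 at under 2-fold, 0.134 and 0.137). Capn1 was not called against FL lines (0.75, limma, adjusted p = 0.262). Snap29 and Anxa6 fell against FL lines, by 1.24 (adjusted p = 0.000304) and by 1.6 (adjusted p = 0.000517) on the log2 scale. Against YS lines they were lower by 0.67 (adjusted p = 0.00329) and 0.55 (adjusted p = 0.0234), under 2-fold. Anxa6 was also called lower in YS than in FL lines (-1.04, adjusted p = 0.0136). Without YS line 3 or FL line 1 that difference was -0.91 or -0.95, under 2-fold.

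Of 9 tested genes that shape the endoplasmic reticulum, 0 were called higher and 1, Ckap4, lower in BM than in YS lines, and none was called against FL lines. At any fold, 4 were higher and 1 lower than in YS lines, compared with 14.4% and 23.5% of all tested genes, and 2 were higher and 1 lower than in FL lines, compared with 10.6% and 17%. Ckap4 gave 48.5, 44.8 and 70.4 TPM for the YS lines and 0.31, 7.63 and 0.77 for the BM lines (adjusted p = 0.0442), and the call was lost without BM line 1 or BM line 3 (adjusted p = 0.143 and 0.133). FL lines spread from 0.05 to 73.7 TPM for this gene. Rtn3, a reticulon gene and the nearest tested neighbour of Atl3, was higher in BM lines by 0.78 (adjusted p = 0.00228) against YS lines and 0.60 (adjusted p = 0.00503) against FL lines, both under 2-fold. Off chromosome 19, Reep3 was higher by 0.99 (adjusted p = 0.0034) and 0.52 (adjusted p = 0.0399). Rtn4 was higher against YS lines by 0.48 (adjusted p = 0.0174) and differed by 0.14 against FL lines (limma, adjusted p = 0.43). Reep5 was higher against YS lines by 0.40 (adjusted p = 0.0718) but lower against FL lines by 0.47 (adjusted p = 0.0535). None of 6 basal transcription genes was called. The chromosome 19 gene among them, Btaf1, which encodes a TBP-binding ATPase, was higher by 0.40 (adjusted p = 0.027) and 0.66 (adjusted p = 0.00413). Of 3 partners of Ccdc88b, only Rasal3 was called, lower in BM than in YS lines (limma, adjusted p = 0.0262). It gave 29.2, 19 and 28.3 TPM for the YS lines, 0, 16.65 and 0 for the FL lines and 0, 3.29 and 0 for the BM lines. Against FL lines its difference was -0.68 (adjusted p = 0.702). Arhgef2 was lower against YS lines by 0.57 (adjusted p = 0.0467), under 2-fold, and differed by -0.19 against FL lines (adjusted p = 0.518). Dock8, on chromosome 19, was not called (-0.23 and 0.18, adjusted p = 0.417 and 0.58).

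The other genes of chromosome 19 were shifted the same way as the 8. Over the 418 tested genes other than the 8, the median log2 difference was 0.52 between BM and YS lines, or 1.43-fold, and 0.78 between BM and FL lines, or 1.72-fold. Over the 11272 tested genes of other chromosomes the medians were -0.12 and -0.11. Of the 418 genes, 83.5% were higher in BM than in YS lines and 86.8% were higher in BM than in FL lines, against 41.2% and 40.9% of all tested genes. Between YS and FL lines the median of the 418 was 0.22, and 72.7% were higher in YS lines, compared with 52.1% of all tested genes.

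**Figure D3:**
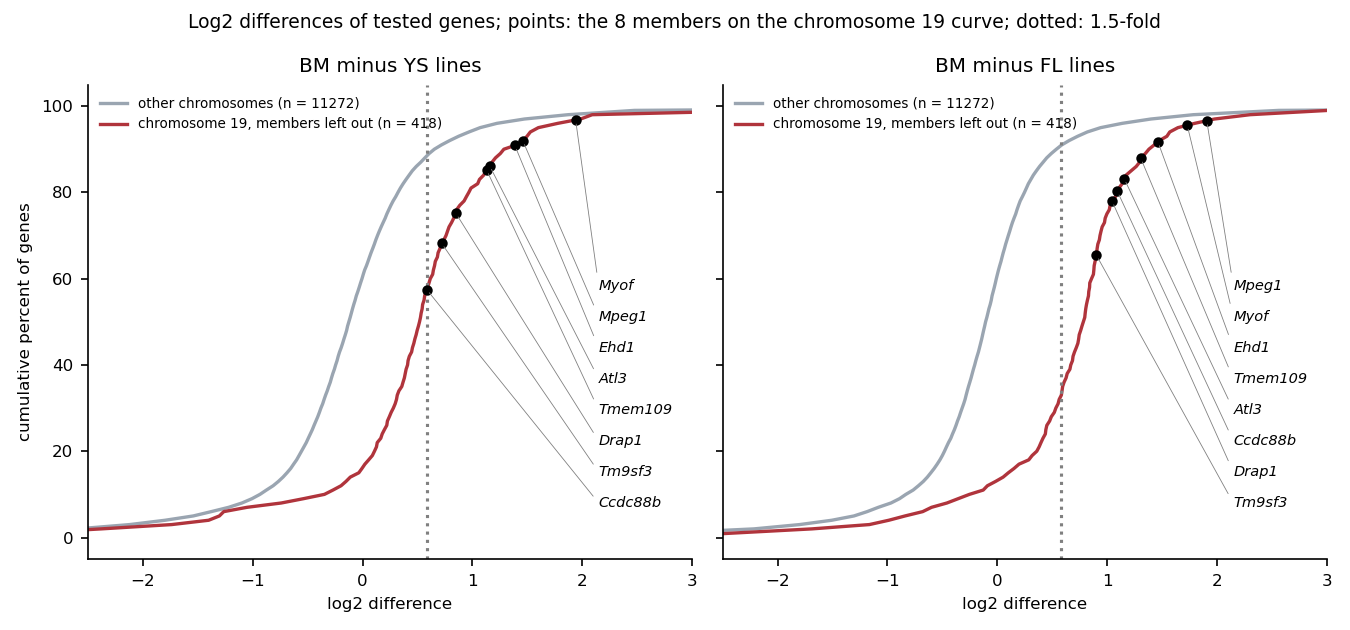
Cumulative percent of tested genes (vertical axes) against the log2 difference of TPM + 1 (horizontal axes) for the 418 chromosome 19 genes without the 8, in red, and the 11272 genes of other chromosomes, in grey; the dotted line is 1.5-fold. The red curves run to the right of the grey ones, with medians of 0.52 and 0.78, and the 8 genes, black points, lie on their upper part.

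Gene by gene, 75 of the 418 (17.9%) were called higher and 14 (3.35%) lower in BM than in YS lines, against 4.7% called higher over the other chromosomes. In BM against FL lines, 99 of the 418 (23.7%) were called higher and 12 (2.87%) lower, against 3.52% called higher elsewhere. Without the 2-fold threshold 246 (58.9%) and 295 (70.6%) were higher at an adjusted p under 0.1, compared with 14.4% and 10.6% of all tested genes. When limma's treat asked for a difference beyond 1.5-fold, 45 of the 418 (10.8%) passed against YS lines and 59 (14.1%) against FL lines, where 2.29% and 2.18% of all tested genes did. The count of 45 fell to 17 without BM line 1 or BM line 3, and that of 59 fell to between 22 and 39 without FL line 2, FL line 3 or any of the BM lines. In plain ratios of means, 185 of the 418 (44.3%) exceeded 1.5-fold against YS lines and 296 (70.8%) against FL lines, compared with 13.3% and 12% of all tested genes. Between YS and FL lines, 10 (2.39%) were called higher in YS lines and 6 (1.44%) lower, near the 1.95% and 1.85% of all tested genes. At any fold, however, 64 (15.3%) were higher and 12 (2.87%) lower in YS lines, where 6.2% and 6.56% of all tested genes were.

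Among the single lines, the median of the 418 genes, taken relative to the median of the other chromosomes, was -0.11, -0.17 and -0.17 in YS lines 1 to 3, -0.37, -0.35 and -0.32 in FL lines and 0.53, 0.43 and 0.55 in BM lines, on the log2 scale and centred on the mean of all 9 lines. The 3 groups did not overlap. The group means were -0.15 ± 0.03, -0.35 ± 0.03 and 0.50 ± 0.06 (SD, n = 3 per group), which set BM lines 1.57-fold above YS lines and 1.80-fold above FL lines. The median deviation of the 8 genes ranked BM line 2 lowest of the BM lines as well, at 0.64 against 0.88 and 0.86. In each of the 3 BM lines chromosome 19 had the highest median of the 20 chromosomes examined. In each FL line it had the lowest, but the values are centred on all 9 lines, so high BM values by themselves place the other 6 lines below 0, and the direct difference between YS and FL lines is the median of 0.22 given above. The chromosome with the next highest median difference was 18 in both comparisons, at 0.31 against YS lines and 0.13 against FL lines. Chromosome medians of YS lines were more uneven: in YS line 1 they ran from -0.45 for chromosome X to 0.33 for chromosome 9, and in YS line 3 from -0.28 for chromosome 3 to 0.31 for chromosome 5.

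**Figure D4:**
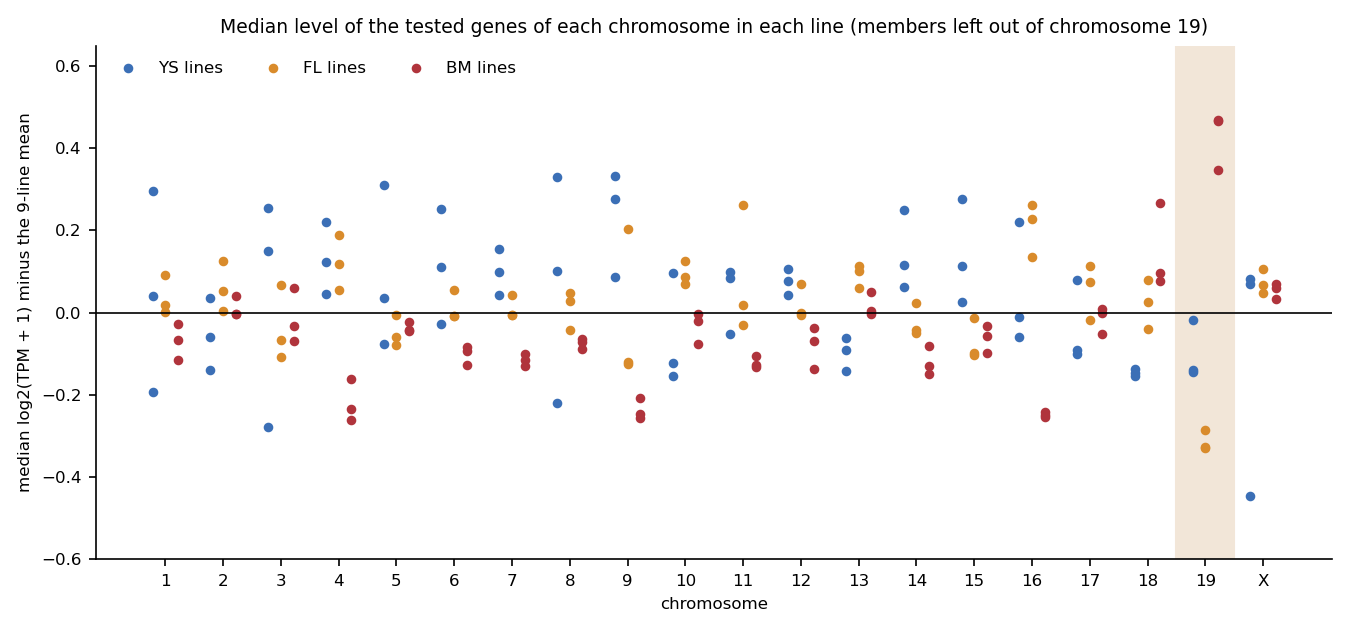
Median over the tested genes of each chromosome of log2(TPM + 1) minus the mean of the 9 lines (vertical axis), by chromosome (horizontal axis), with a point per line and the 8 genes left out of chromosome 19, which is shaded. On chromosome 19 the BM lines lie at 0.35 to 0.47, above every other point of that chromosome, and the FL lines lie at -0.29 to -0.33.

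Relative to the other 418, the 8 genes stood in the upper part of the chromosome, as their choice implies. Against YS lines Myof ranked 14, Mpeg1 37, Ehd1 43, Atl3 63, Tmem109 66, Drap1 110, Tm9sf3 140 and Ccdc88b 186 of the 426 chromosome 19 genes. Against FL lines the ranks were 16 for Mpeg1, 21 for Myof, 39 for Ehd1, 55 for Tmem109, 74 for Atl3, 89 for Ccdc88b, 99 for Drap1 and 151 for Tm9sf3. Divided by the chromosome's own median fold, Ccdc88b was 1.05 and Tm9sf3 1.15 against YS lines, near the typical gene of the chromosome, while Myof was 2.68, Mpeg1 1.92 and Ehd1 1.82. Against FL lines these quotients ran from 1.09 for Tm9sf3 to 2.18 for Mpeg1. Taken instead relative to the median of the other chromosomes, the 8 genes were 1.64-fold (Ccdc88b) to 4.18-fold (Myof) higher than in YS lines and 2.01-fold (Tm9sf3) to 4.04-fold (Mpeg1) higher than in FL lines.

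The shift ran along the whole chromosome. When the 418 genes were put in order along it and split into 10 blocks of 40 to 43 genes, the median log2 difference was above 0 in each block in both comparisons. It ran from 0.28 in block 7, where Myof lies, to 0.62 in block 1 against YS lines, and from 0.36 in block 7 to 0.88 in block 1 against FL lines. The 10 tested genes around Tmem109 had a median of 0.04 against YS lines, with 5 of the 10 above 0, and of 0.47 against FL lines, with 6 above 0. Around Tm9sf3 the medians were 0.31 and 0.43, with 6 of 10 above 0 in both comparisons. The 10 genes around Mpeg1 and the 10 around Drap1 were all above 0 in both comparisons, with medians against YS lines of 0.58 and 0.48. Mpeg1 exceeded all 10 of its neighbours in both comparisons.

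**Figure D5:**
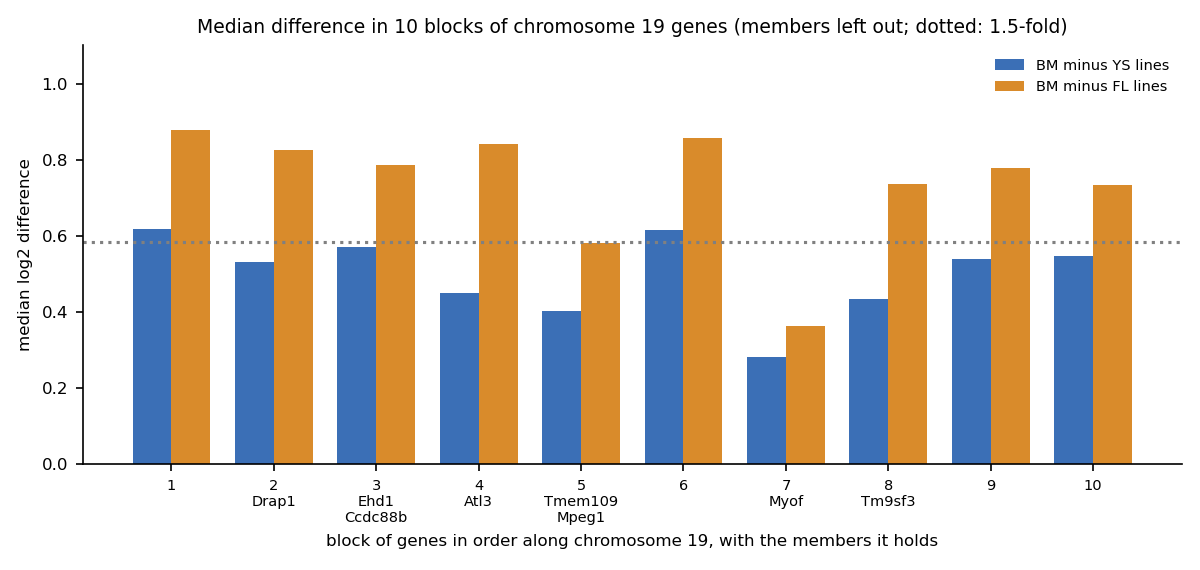
Median log2 difference of TPM + 1 (vertical axis, from 0) in 10 consecutive blocks of the 418 chromosome 19 genes in order along the chromosome (horizontal axis, with the genes of interest that lie in each block), for BM minus YS lines in blue and BM minus FL lines in orange. All bars are above 0, and block 7 has the lowest in both comparisons, at 0.28 and 0.36.

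Of the 16 genes next to the 8, the nearest tested gene on each side, 13 were higher in BM than in YS lines and 14 higher in BM than in FL lines, with medians of 0.40 and 0.60. Of the 418 chromosome 19 genes, which include these 16, 83.5% and 86.8% were higher, with medians of 0.52 and 0.78. Most differences of the 16 were under 2-fold. Cep55, a gene of cell division beside Myof, was called higher against FL lines (1.08, limma, adjusted p = 0.00513), though without FL line 2 or BM line 1 its difference was 0.95, under 2-fold. Tmem132a, which neighbours Tmem109, went the other way, with 15.0, 12.1 and 11.8 TPM for the YS lines, 16.3, 12.3 and 16.9 for the FL lines and 1.49, 3.03 and 1.19 for the BM lines (log2 differences of -2.31 and -2.52, adjusted p = 0.00123 and 0.000659). Pla2g16, a phospholipase gene beside Atl3, was called lower against YS lines (-1.37, adjusted p = 0.0565), a call that was lost without YS line 3 or any of the BM lines (adjusted p of 0.111 to 0.168).

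Beyond the 8, 55 of the 418 chromosome 19 genes (13.2%, against 2.6% of all tested genes) were called higher in BM lines than in both other groups, and 7 (1.67%, against 3.63%) lower. Csf2ra, which encodes the alpha chain of the GM-CSF receptor, gave 28.2, 53.1 and 91.3 TPM for the YS lines, 25.3, 68.8 and 69.1 for the FL lines and 216, 197 and 233 for the BM lines (log2 differences of 2.04 and 2.10, limma, adjusted p = 0.0151 and 0.0155). Lipa, the gene of lysosomal acid lipase, ran from 144 to 406 TPM over the YS lines, 261 to 336 over the FL lines and 921 to 1019.57 over the BM lines (1.94 and 1.70, adjusted p = 0.00473 and 0.00745). No BM value of either gene overlapped the other groups. Some genes were close to absent outside BM lines. Pip5k1b, a phosphoinositide kinase gene, was at most 1.19 TPM in YS and FL lines and 27.6 to 53.2 TPM in BM lines (4.41 and 5.06, adjusted p = 0.000189 and 8.89e-05). Fosl1, encoding the AP-1 subunit FRA1, was listed at 0 in all YS and FL lines and reached 4.89, 7.44 and 9.12 TPM in the BM lines. Marveld1, Npas4 and Ffar4 were also called higher than in both groups (adjusted p of at most 0.00434). Marveld1 was not absent everywhere else: it read 10.03 TPM in YS line 3, against 56.45 to 75.02 TPM in BM lines.

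Batf2, Gda and Dusp5 were called higher against both groups too, but Batf2 against YS lines lost its call without any of the BM lines or YS lines 2 or 3 (adjusted p of up to 0.164), Dusp5 against YS lines without BM line 1 (adjusted p = 0.104), and Gda against FL lines without BM line 1 (adjusted p = 0.105). With a pseudocount of 0.1 TPM the calls of Batf2 against YS lines (adjusted p = 0.146) and Gda against FL lines (adjusted p = 0.114) were also lost, and Batf2 was lost with no filter on low values (0.108) and with only the 6 libraries compared (0.104). On the lower side, Lrp5, a Wnt co-receptor gene, gave 36.5, 15.6 and 19.98 TPM for the YS lines, 20.5, 13.2 and 7.43 for the FL lines and 0.03, 2.59 and 0 for the BM lines (adjusted p = 0.00298 and 0.00604). Ms4a6b, Adrb1 and Psat1 were called lower against both groups, and each lost a call when 1 line was left out (Ms4a6b without YS line 2, BM line 1 or BM line 3, adjusted p of up to 0.132; Adrb1 without BM line 1 or BM line 3, up to 0.108; Psat1 without BM line 1, BM line 3, FL line 1 or FL line 3, up to 0.233). Psat1 against FL lines also lost its call with no filter on low values (adjusted p = 0.122) and with the replicate block (adjusted p = 0.101). The chromosome 19 genes named here were chosen for large differences, and they went in both directions.

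The shift was present at every level of expression. Split by mean TPM over all lines into 3 bins of 139 or 140 genes, the lowest, middle and highest bins had median log2 differences of 0.42, 0.52 and 0.54 against YS lines and 0.59, 0.83 and 0.83 against FL lines, on a scale that understates differences of genes at low TPM. All 8 genes had mean levels within the highest bin.

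Likeness over the 9 lines is given as a description, since genes chosen for high values in the BM lines must resemble their own mean. Pearson's r between log2(TPM + 1) of each gene and the mean profile of the 8, centred gene by gene, ran from 0.914 for Ccdc88b to 0.987 for Tmem109, and r with the chromosome 19 line medians from 0.939 for Myof to 0.991 for Tmem109. The 9 lines fall into 3 groups, and the mean profile includes the gene itself. Among tested genes of other chromosomes, those most like the mean profile over the 9 lines included Sdc2, Gpr17, Rgs16, Kirrel3, Stap2, Apbb1, Src, Kctd17 and 2610035D17Rik, with r between 0.989 and 0.996. Most were near 0 TPM outside BM lines: Sdc2, the gene of syndecan-2, was at most 0.68 TPM in YS and FL lines and 20.6, 16.4 and 21.0 TPM in BM lines, and Rgs16, a regulator of G protein signaling, was at most 0.80 TPM against 218, 197 and 231 TPM. Of the 10, 50, 100 and 200 genes most like the profile over all chromosomes, 30%, 32%, 39% and 42.5% were on chromosome 19, which holds 3.56% of the tested genes when the 8 are left out.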

How the data were processed

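RNA of 9 macrophage lines (3 YS, 3 FL and 3 BM lines) was measured with 1 poly(A)-selected, strand-specific library per line, sequenced from 1 end to 75 nt. The authors deposited TPM per gene symbol (24411 genes), and the submitters' processing notes name Trim Galore 0.6.6, STAR 2.7.9a and RSEM 1.3.3. The genome build and annotation are not given in the sources used here. The study's own comparisons started from raw counts in iDEP, which were not used here. TPM keeps no depth, so precision was judged from the spread among lines, and p-values measure only that spread.

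Groups and line numbers came from the sample labels. The 11753 genes that reached 1 TPM in 3 or more of the 9 libraries were tested on log2(TPM + 1) with limma 3.58.1 in R 4.3.3, as 1 model over 9 libraries, with empirical Bayes and an intensity trend and Benjamini-Hochberg adjustment over all tested genes. A gene was called when its adjusted p was under 0.1 and its difference over 2-fold, the thresholds of the study, and treat tested differences beyond 1.5-fold. Ratios of means, correlations and promoter matches were computed in Python 3.11.15 with pandas 2.3.3. No test was made of the 8 genes, which were chosen on these libraries. The 8 genes and all gene lists were chosen with earlier results of these data known. Symbols were matched to chromosomes and gene order in the RefSeq table of GRCm38.p6 (24263 of 24411, and 11698 of the tested genes); promoters came from RefSeq of the same build, 1 per gene.

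Named are the 8 genes, relatives and partners that were called or are the nearest relative, the nearest tested gene on each side, the 10 chromosome 19 genes called higher in BM lines against both groups with the largest smaller difference, the 5 called lower by the same measure out of 7, and the 10 genes of other chromosomes with the highest r to the mean profile, of which 1 is not reported here. Alternatives changed the pseudocount, the filter, the scaling, the trend of the variance, which libraries were fitted, the fold threshold and a replicate block, and left out each line in turn. The other assays of the study were not analysed here.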

Additional observations from a re-analysis of the deposited data

How the results depend on the processing

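The 8 genes kept their direction in BM lines under every alternative run. The number above 1.5-fold against both groups stayed at 8, except for 7 with a pseudocount of 4 TPM and 7 to 8 with a line left out. A plain ratio of mean TPM holds no pseudocount, so the count with 4 TPM is not one of plain ratios. The counts for the other chromosome 19 genes were less stable. With a pseudocount of 4 TPM in place of 1, the called genes were 54 in place of 89 (BM against YS lines), 69 in place of 111 (BM against FL lines) and 7 in place of 16 (YS against FL lines), the genes beyond 1.5-fold against FL lines were 39 in place of 59, and the median log2 differences were 0.45 in place of 0.52 and 0.66 in place of 0.78. Without the fold threshold the called genes were 266, 309 and 76. With no filter on low values the medians were 0.31 and 0.56. With quantile normalization they were 0.64 and 0.88, and with median-of-ratios scaling 0.63 and 0.87, with 96 and 98 genes beyond 1.5-fold against FL lines. Between YS and FL lines, 9 genes were called with a filter at 5 TPM and 1 with only the 6 libraries compared. Leaving out a line gave 69 to 97, 82 to 116 and 3 to 18 called genes, 17 to 49 and 22 to 84 genes beyond 1.5-fold, and medians of 0.48 to 0.58 and 0.76 to 0.82. The signs of some differences near 0 reversed: Tm9sf1 against YS lines was 0.0447 with quantile normalization and 0.0269 with median-of-ratios scaling, Tm9sf4 against FL lines was 0.003 and 0.0011, and with a line left out Atl2 against YS lines ran from -0.28 to 0.0304, Rasal3 from -1.38 to 0.70, Ccdc88a from -0.0278 to 0.19 and Dock8 from -0.0109 to 0.40 against FL lines. Single calls lost under a planned setting were Batf2 and Gda (pseudocount 0.1 TPM), Pla2g16, Adrb1 and Psat1 (pseudocount 4 TPM), Batf2 and Psat1 (no filter), Psat1 (both scalings, where its difference was under 2-fold) and Batf2 (only the 6 libraries compared), and S100a10 against FL lines gained one with median-of-ratios scaling (1.04, adjusted p = 0.0398). The cause was not tested.

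The line numbers are shared across groups, but lines of the same number did not deviate together (r from -0.118 to 0.088 in 9 pairs). Whether lines of the same number also shared a preparation or run is not given by the labels, and these correlations cannot settle it. With the number as a replicate block the called genes were 89, 107 and 12, and those beyond 1.5-fold 37 and 53; of the named genes, Psat1 against FL lines lost its call (adjusted p = 0.101). TPM gives no depth, 3 lines a group limit the precision, and each origin is represented by lines grown out from colonies, so a trait of the lines and one of the origin cannot be told apart.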
